A study of Homo sapiens with 2 samples.

Results

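The YPEL family (Yippee-like genes YPEL1, YPEL2, YPEL3, YPEL4 and YPEL5) was examined in EOL-1 cells, an established human line from eosinophilic leukaemia with a FIP1L1-PDGFRA fusion. Members were all probe sets annotated with one of these symbols and no other, which gave 11 of the 54675 probe sets on the array, or 5 of 19775 annotated genes. The Glivec group was 1 culture of EOL-1 cells given 100 nM Glivec (imatinib, a kinase inhibitor that acts on PDGF receptors) for 4 h. The untreated group was 1 culture of the same line without the drug, and the labels name no solvent control. Both were grown in RPMI medium with serum and antibiotics, and biotin-labelled RNA of each was put on 1 Affymetrix array. There was 1 array per group, so no difference below has a replicate check, no test between the groups was made, and precision is limited by the number of arrays. The family was chosen by its Glivec over untreated signal ratios, so these ratios are given as a description.

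YPEL genes are named after Yippee of the fruit fly and encode small zinc-binding proteins that are highly conserved among animals. YPEL1 to YPEL4 are close to one another in sequence, and YPEL5 is the most divergent member. The proteins have been located in the nucleus and on the mitotic apparatus. YPEL3 is known as a growth-suppressing gene that p53 can induce, and YPEL5 as a subunit of the CTLH ubiquitin ligase. These roles are background and were not measured here.

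All 5 YPEL genes had a higher signal on the Glivec array than on the untreated array. YPEL4 was 5.46-fold higher, YPEL1 3.39-fold, YPEL2 3.37-fold, YPEL3 3.23-fold and YPEL5 1.69-fold, each by its brightest probe set. YPEL1 to YPEL4 thus passed the 2-fold threshold used for counts and YPEL5 did not. Values are MAS5 signal intensities on a linear scale. The floor, 13.7, was the median signal over both arrays without control probe sets, and lower signals were put at the floor before taking log2. A probe set or gene is called measured where at least 1 array exceeded the floor.

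**Figure D1:**
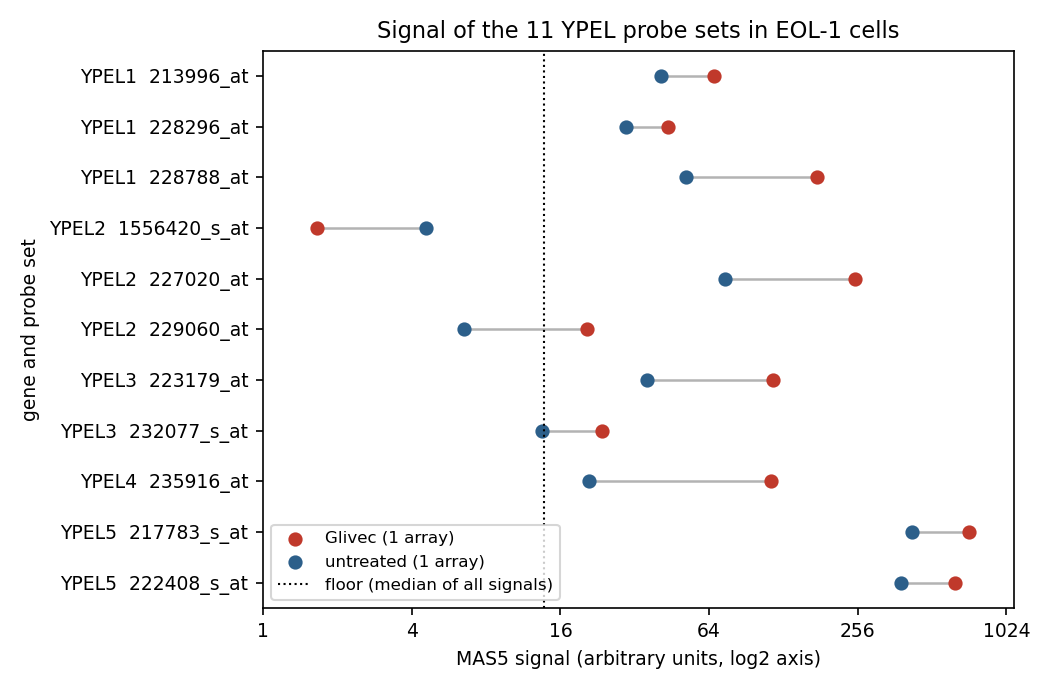
MAS5 signal (log2 axis, arbitrary units) of each of the 11 YPEL probe sets on the Glivec array and the untreated array, 1 point per array, with a dotted line at the floor of 13.7. In 10 probe sets the Glivec point lies to the right of the untreated point, and the YPEL2 probe set 1556420_s_at, with both points under the floor, is the exception.

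YPEL4, whose loss in mice affects red blood cells, had a signal of 114 with Glivec and 21.0 without by its 1 probe set, 235916_at. The log2 ratio of Glivec over untreated was 2.45. The untreated signal was just above the floor. With 1 probe set, the YPEL4 ratio has no within-gene check.

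YPEL3 had signals of 116 with Glivec and 36.0 without by probe set 223179_at, a log2 ratio of 1.69. Its other probe set, 232077_s_at, had 23.5 with Glivec and 13.4 without. The untreated value lay under the floor, so the second probe set gives a bound and was at least 1.71-fold higher. Both YPEL3 probe sets were therefore higher on the Glivec array, by unequal amounts. YPEL3-DT, the divergent noncoding transcript that starts beside YPEL3, was under the floor on both arrays (12.0 with Glivec and 8.72 without) and has no ratio.

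The sequences up to the start of YPEL3 and YPEL4 are shown because both genes were past 2-fold while their promoters differ in base make-up and in the motifs found. They come from RefSeq on GRCh38.p14 and run 5′ to 3′ on the strand of the gene. RefSeq promoter entries were matched for YPEL2, YPEL3, YPEL4 and YPEL5. Capitals mark the bases that match a searched motif, and the YPEL3 sequence runs on through the match at the start of the gene.
YPEL3, chr16:30096207-30096463, minus strand: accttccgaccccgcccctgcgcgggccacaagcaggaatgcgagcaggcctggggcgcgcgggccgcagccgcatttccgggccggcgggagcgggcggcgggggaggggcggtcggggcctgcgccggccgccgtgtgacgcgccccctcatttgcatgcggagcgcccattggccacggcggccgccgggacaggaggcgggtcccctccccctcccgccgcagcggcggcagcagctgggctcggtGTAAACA
YPEL4, chr11:57649913-57650162, minus strand: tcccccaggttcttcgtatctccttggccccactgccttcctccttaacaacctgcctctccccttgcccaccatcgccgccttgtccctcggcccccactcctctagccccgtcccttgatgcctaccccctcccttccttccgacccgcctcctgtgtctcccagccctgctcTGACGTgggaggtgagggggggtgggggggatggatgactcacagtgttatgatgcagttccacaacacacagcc

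In these windows 4 short motifs were searched on both strands over 300 bases, from 250 before to 50 after the annotated start, and were chosen with the sequences in view. The forkhead core GTAAACA, which FOXO factors can bind, was found in the YPEL3 window alone of the 4, beginning at the annotated first base of the gene, and in 3.42% of 35116 promoter windows. The ATF and CREB core TGACGT was found in YPEL4, 75 bases before the start, and in YPEL5, 83 bases before it, and in 7.98% of all windows. The E-box CACGTG (7.26% of windows) and the STAT motif TTCNNNGAA (7.66%) were found in none of the 4 windows. None of these matches overlapped another. A match describes letters in the window and shows no binding.

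YPEL2 had signals of 249.8 with Glivec and 74.1 without by probe set 227020_at, a log2 ratio of 1.75. Probe set 229060_at had 20.6 with Glivec and 6.48 without, and was at least 1.5-fold higher against the floor. Probe set 1556420_s_at had 1.65 with Glivec and 4.57 without. Both of these last signals were under the floor, so no ratio is given for that probe set. The YPEL2 value thus rests on 227020_at, with 1 dim probe set in the same direction.

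YPEL1, which alters the shape of fibroblasts when it is overexpressed in mouse cells, was covered by 3 probe sets, all above the floor on both arrays. Probe set 228788_at had 175 with Glivec and 51.5 without, a log2 ratio of 1.76. Probe set 213996_at had 67.0 with Glivec and 40.9 without, a log2 ratio of 0.71. Probe set 228296_at had 43.5 with Glivec and 29.6 without, a log2 ratio of 0.55. All 3 were higher on the Glivec array, and 1 of them by more than 2-fold. The mean over the 3 was 1.01 ± 0.66 (SD between probe sets of 1 gene, which leaves out variation between cultures), so the gene's place past 2-fold depends on the probe set used.

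The disagreement within YPEL1 was large for this array. Its probe sets spanned 1.21 in log2 ratio, against a median span of 0.44 over the 1527 genes with exactly 3 probe sets above the floor on both arrays. A span as large or larger was found in 62 of these genes, or 4.06%. The pooled SD between probe sets of a gene was 0.325 on the log2 scale over 5603 genes.

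YPEL5, the CTLH subunit, had signals of 720.1 with Glivec and 426 without by probe set 217783_s_at, a log2 ratio of 0.76. Probe set 222408_s_at had 632 with Glivec and 384 without, a log2 ratio of 0.72. The ratios of the YPEL5 probe sets differed by 0.038, against a median of 0.25 over 3006 genes with exactly 2 such probe sets. Both carry the suffix _s_at, which marks probes shared by several transcripts. Whether probes of one YPEL gene also read RNA of another was not tested.

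Of the 11 probe sets, 8 were above the floor on both arrays, 2 gave a bound and 1 was under the floor on both. The 10 measured probe sets had a median log2 ratio of 0.77, and all 10 were above 0, beside a median of 0.08 and 57.3% above 0 over the 24596 measured probe sets of 1 gene. At least 2-fold higher were 4 of the 10, where 2.99% of all measured probe sets were, and at least 2-fold lower were 0, where 2.56% were. Counted by gene, 4 of 5 were at least 2-fold higher, where 3.13% of 12705 measured genes were, and 0 were at least 2-fold lower, where 2.63% were. These counts come from the contrast for which the family was chosen and support nothing further. In bulk RNA, more cells that express a gene and more of its RNA per cell cannot be told apart.

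**Figure D2:**
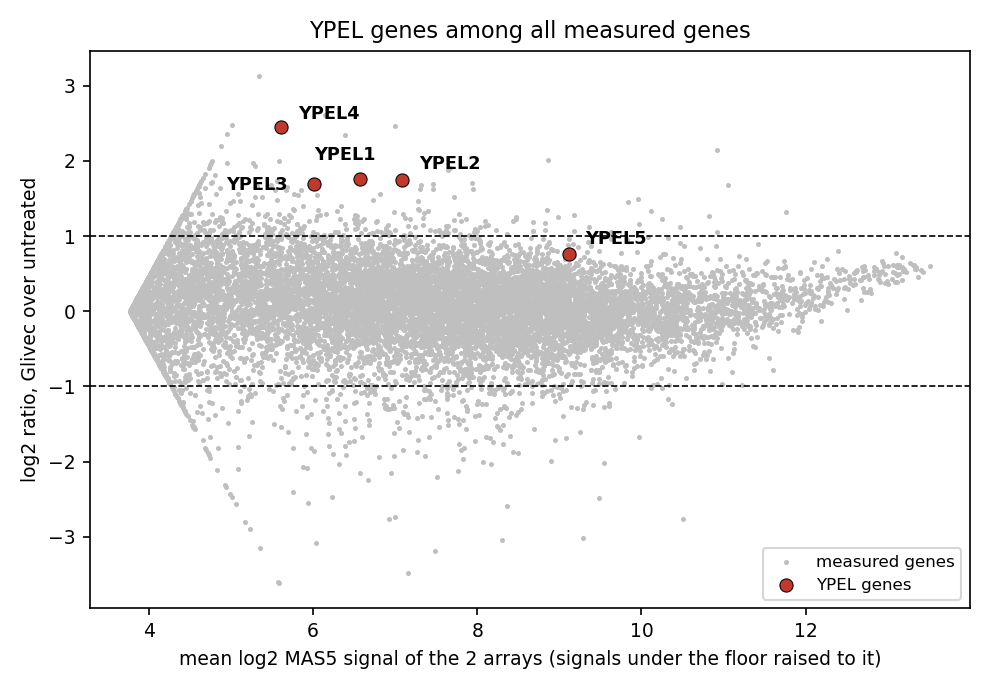
Log2 ratio of Glivec over untreated against the mean log2 signal of both arrays for 12705 measured genes (grey) and the 5 YPEL genes (red), each by its brightest probe set, with dashed lines at 2-fold. YPEL4 lies highest of the family at 2.45, YPEL1, YPEL2 and YPEL3 lie together between 1.69 and 1.76, and YPEL5 lies at 0.76 among brighter genes.

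Set in the order of all measured genes from the highest ratio down, YPEL4 was at place 5, YPEL1 at 24, YPEL2 at 25, YPEL3 at 33 and YPEL5 at 971. The central 90% of measured genes lay between -0.77 and 0.87 in log2 ratio, and YPEL5 lay inside this range while the others lay above it. Ratios varied more among dim genes, so the genes were also split by mean signal into 4 classes of equal size. YPEL1, YPEL3 and YPEL4 fell in class 2, counted from the dimmest, where 4.88% of genes were at least 2-fold higher. YPEL2 fell in class 3, where 1.79% were. YPEL5 fell in the brightest class, where 0.756% were, and 2.14% of genes in that class had a ratio as high as that of YPEL5. The pooled SD between probe sets was 0.389, 0.311 and 0.289 in these classes from dim to bright.

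The ratios of YPEL1, YPEL2 and YPEL3 lay within 0.072 of one another, which is less than the pooled SD between probe sets in each of these classes, so they cannot be ordered. YPEL4, with 1 probe set near the floor when untreated, lay 0.69 above YPEL1, and YPEL5 lay 0.93 below YPEL3. The YPEL1 probe sets alone spanned 1.21, so no order of the genes is drawn from these differences. The lower YPEL1 probe sets, at 0.55 and 0.71, lay below both YPEL5 probe sets.

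All ratios are relative to the bulk of transcripts, because each array had been scaled to a common mean signal before deposit. The 18 hybridisation spike-in probe sets, bacterial and phage sequences that the standard protocol adds in equal amounts, had a median log2 ratio of 0.74, with a range of 0.42 to 0.89. Scaling to them moved the median over all measured genes to -0.59, against 0.10 as deposited. Under that scaling YPEL4 was at 1.71, YPEL1 at 1.02, YPEL2 at 1.01, YPEL3 at 0.95 and YPEL5 at 0.018. The YPEL1 probe sets 213996_at and 228296_at were then at -0.027 and -0.18, and the second YPEL5 probe set at -0.019. So the direction for YPEL5 and for 2 of 3 YPEL1 probe sets depends on the scaling, whereas YPEL2, YPEL3, YPEL4 and YPEL1 probe set 228788_at stayed above 0 under each scaling tried. These spike-ins are controls of hybridisation and do not measure the RNA content of a culture. Which scaling fits these arrays was not tested.

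**Figure D3:**
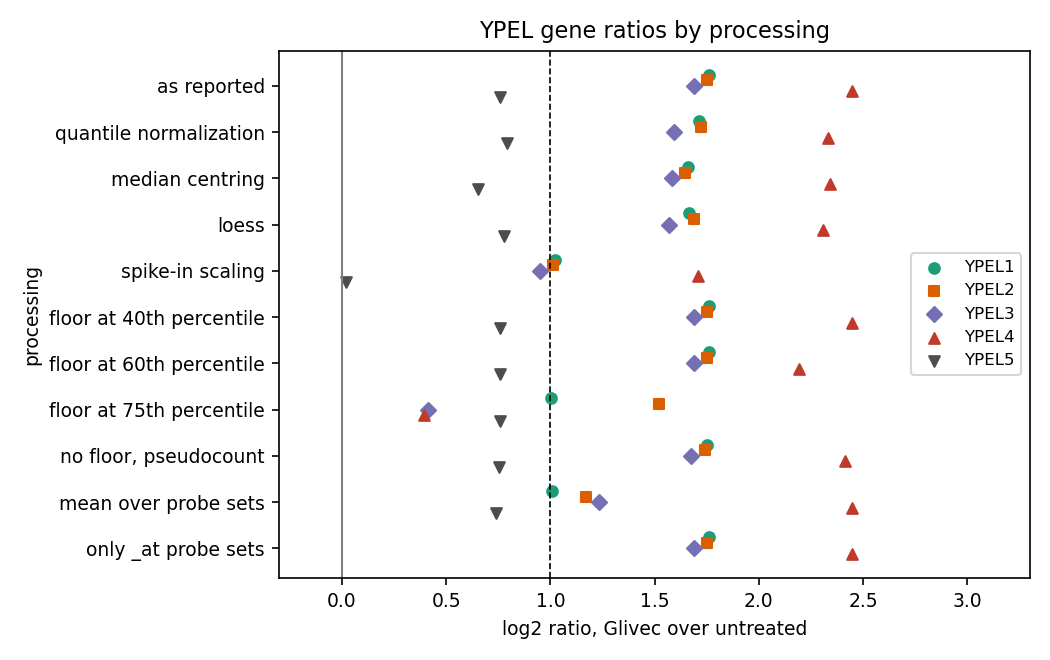
Log2 ratio of Glivec over untreated for each YPEL gene (colour and marker) as reported and under 10 other ways of processing, with a solid line at 0 and a dashed line at 2-fold. Spike-in scaling moves all 5 genes to lower ratios, with YPEL5 at 0.018. With the floor at the 75th percentile the points of YPEL1 to YPEL4 are lower bounds, at 0.41 for YPEL3 and 0.39 for YPEL4. Points that are bounds are not marked apart.

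All 4 windows were above the median GC content of promoters. It was 79.0% in the YPEL3 window, 75% in YPEL2, 70.0% in YPEL5 and 62.3% in YPEL4, beside a median of 58.7% over all windows. The observed over expected CpG ratio was 0.90 in YPEL3, 0.81 in YPEL2, 0.74 in YPEL5 and 0.38 in YPEL4, beside a median of 0.58. YPEL3 and YPEL2 were thus among the more GC-rich windows, at or above 96.7% and 91.0% of them. YPEL4, the gene with the highest ratio, lay near the middle, at or above 60.3%.

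The other subunits of the CTLH ligase, the complex to which YPEL5 belongs, were measured for comparison, and all 10 listed were above the floor on both arrays. None was 2-fold different in either direction, where 3.13% of all measured genes were higher and 2.63% lower. Their median log2 ratio was 0.07, beside 0.10 over all measured genes, with 6 above 0 and 4 below, where 59.0% of all were above 0. The counts are near the shares over all genes. ARMC8, a scaffold subunit, had signals of 171 with Glivec and 241 without, a log2 ratio of -0.50, and its other 4 measured probe sets were between -0.59 and -0.33. GID4, a substrate receptor, was at -0.21 (119 with Glivec and 138 without). At the other end RMND5B, a paralog of the RING subunit RMND5A, was at 0.42 (158 with Glivec and 118 without), and RANBP10 was at 0.38 (77.6 with Glivec and 59.6 without). YPEL5, at 0.76, lay above all 10 by the probe set that stood for each gene. A dim MKLN1 probe set, 1560145_at, gave a bound of at least 0.71 (22.4 with Glivec and 8.38 without). The YPEL genes were chosen by these ratios, so the place of YPEL5 above the subunits supports nothing further.

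The human proteins CRBN, MIS18A and OIP5 share the Yippee zinc fold without belonging to the YPEL family. CRBN, the cereblon substrate receptor, had signals of 653 with Glivec and 457 without, a log2 ratio of 0.51, or 0.29 by its other probe set. OIP5, also known as MIS18B and needed for loading of centromeric histone, was at 0.22 (393 with Glivec and 338 without). Its partner MIS18A was at 0.057 (598 with Glivec and 575 without), or -0.023 and 0.26 by other probe sets. All 3 were above 0, where 59.0% of measured genes were, and none reached 2-fold, where 3.13% were higher and 2.63% lower. Their median was 0.22, beside 0.10 over all measured genes. With 3 genes these counts are too small to set against the shares over all genes, and they show nothing particular to the 3.

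The YPEL genes lie on chromosomes 22, 17, 16, 11 and 2 for YPEL1 to YPEL5, so no pair of them adjoins. The 3 protein-coding genes next to each on either side were listed, 30 in all, of which 28 had an unambiguous probe set and 23 were measured. Their median log2 ratio was 0.09, beside 0.10 over all measured genes. Above 0 were 13 and below it 10, where 59.0% of all measured genes were above 0, and 0 were at least 2-fold higher, where 3.13% of all were. These counts are near the shares over all genes. SDF2L1, a chaperone cofactor of the endoplasmic reticulum that lies 2 genes from YPEL1, was 3.81-fold lower, with signals of 64.7 on the Glivec array and 247 on the other. PPIL2, between SDF2L1 and YPEL1, was at -0.13 by the probe set used and between -1.07 and -0.27 by its other 4 measured probe sets, all of the cross-hybridising class.

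Near YPEL4, the palmitoyltransferase gene ZDHHC5 was at -0.63 (359 with Glivec and 556 without) and its other probe set at -0.71. The RNA kinase gene CLP1, between YPEL4 and ZDHHC5, was at -0.38. Among neighbours above the floor on both arrays the highest was PRR11, near YPEL2, at 0.76 (1624 with Glivec and 959 without), or 0.49 and 0.33 by other probe sets. ALK, next to YPEL5, was at least 1.66-fold higher at the floor (22.7 with Glivec and 4.41 without). None of the 20 neighbours above the floor on both arrays had a ratio as high as those of YPEL1 to YPEL4. The other 3 neighbours are known as bounds. This holds for the probe set that stood for each gene, as the other YPEL1 probe sets, at 0.71 and 0.55, lay below PRR11. The YPEL genes were chosen by these ratios, so the difference supports nothing further.

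**Figure D4:**
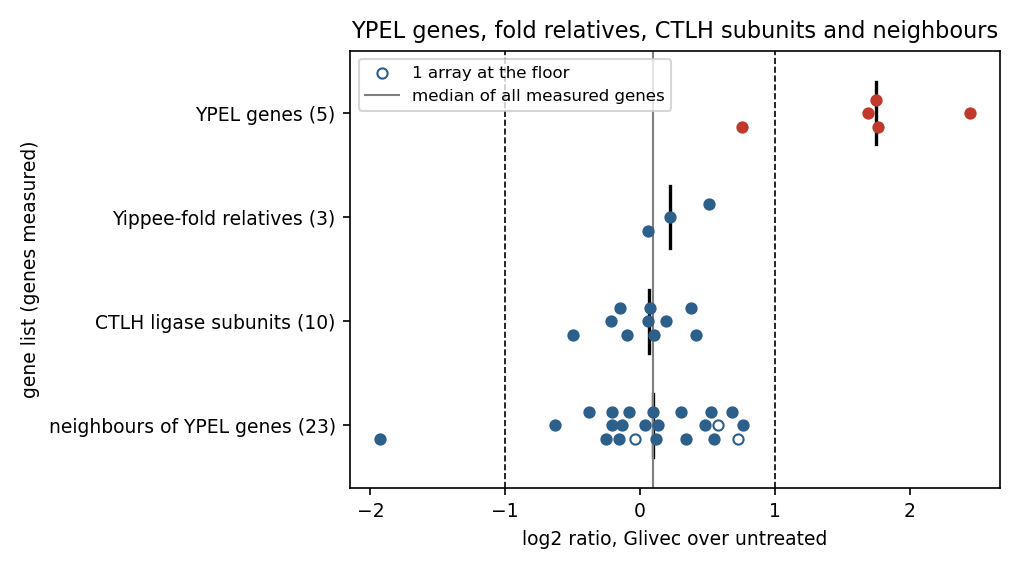
Log2 ratio of Glivec over untreated for the 5 YPEL genes (red), the 3 genes of related fold, the 10 other CTLH subunits and the 23 measured neighbours (blue), 1 point per gene, with short bars at list medians of 1.75, 0.22, 0.07 and 0.09. Open points have 1 array at the floor, dashed lines mark 2-fold, and the points to the right of the upper line are 4 YPEL genes.

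For each YPEL gene, the 3 genes with the smallest distance in log2 signal over both arrays were found. With 2 arrays this measure says only that signals were alike. Around YPEL1 they were the autophagy kinase gene ULK1, at a distance of 0.31 with a log2 ratio of 1.48, FGFR3 (1.28) and FAM110A (1.27). Around YPEL2 they were the mitotic phosphatase gene CDC25C (1.68), the BH3-only gene BMF (1.63) and the chemokine receptor gene CXCR2 (1.29), at distances of 0.32 to 0.33. YPEL3 had closer ones, SH2D3C at 0.083 with a ratio of 1.74, PCED1A (1.55) and LINC00324 (1.62). The gene nearest to YPEL4 was KLC4, a kinesin light chain, at 0.32 with a ratio of 2.01, then LOC401261 (1.73) and ARID5B (1.66). GIHCG, MBTD1 and OFD1 lay within 0.080 of YPEL5, with ratios of 0.69 to 0.70.

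The arrays carried the transcripts of a myeloid line of this kind. Of 10 identity markers, 6 were above the floor on both arrays, among them PTPRC (2057 with Glivec and 1568 without), the eosinophil granule gene PRG2 (6302 and 4744) and MPO (694 and 549.5). CSF2RB, also among them, was lower on the Glivec array (391 and 693). EPX and CLC were above the floor on 1 array each (27.2 and 12.6 for EPX, 13.2 and 19.4 for CLC), and IL5RA was under it on both. Summed over the measured identity markers the signal was 10137 with Glivec and 8070 without, and over 4 of 8 markers of other blood cells, the ones measured, 419 and 413. Of these PPBP made up most (358 and 369), and PF4 was dim on both arrays (21.0 and 15.9). HBB was above the floor on the Glivec array alone by the probe set used (30.5 and 6.93). The other 2 measured HBB probe sets had near-equal signals (28.1 and 27.8, and 29.5 and 30.9). Of the T cell markers, CD3E was above the floor on the untreated array alone (9.48 with Glivec and 21.0 without), and CD3D was under it on both. PDGFRA, the kinase of the fusion, had 398 with Glivec and 602 without by its brightest probe set. The dimmer PDGFRA probe set 215305_at went the other way, with 31.3 with Glivec and 24.1 without. The part of any of these differences in the YPEL values was not tested.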

How the data were processed

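EOL-1 RNA from 1 Glivec and 1 untreated culture was measured on 1 Affymetrix array each. The authors deposited 1 signal intensity per probe set. Per the submitters' processing notes these came from MAS5, with no version named. The mean signal after trimming 2% at each end was 100.014 on both arrays. Probe sets were named from the platform annotation, with 41097 having 1 symbol, 1801 several and 11777 none here. All 11 YPEL probe sets matched the RefSeq gene table by gene ID, with 0 symbols changed.

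Signals under the floor were raised to it and log2 ratios taken as Glivec over untreated. The probe set with the highest mean signal stood for each gene, and _x_at probe sets did so only for lack of others. Of 12705 measured genes, 10975 were above the floor on both arrays. Named were all YPEL probe sets, the members past 2-fold and the 2 highest and 2 lowest of the CTLH, related-fold and neighbour lists, and the 3 genes nearest to each YPEL gene. CLP1, PPIL2, MKLN1, YPEL3-DT and the identity and blood cell markers given values were added after their values were seen. So were some other probe sets of named genes.

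The members, lists and alternatives were chosen with earlier results of these data known. The calculation was tested on simulated signals, with known changes put only on genes well above the floor. That test did not start from untreated signals as low as those of YPEL1, YPEL3 and YPEL4. With 1 array per group no test was made. Alternatives were quantile normalization, median centring, loess (span 0.3), spike-in scaling, a floor at percentile 40, 60 or 75, a pseudocount of 0.646 with no floor, averaging a gene's probe sets, use of _at probe sets alone, and thresholds of 1.5-fold and 3-fold. Python 3.11.15, numpy 2.4.6, pandas 2.3.3, scipy 1.17.1, statsmodels 0.14.6 and matplotlib 3.10.9 were used.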

Additional observations from a re-analysis of the deposited data

How the results depend on the processing

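No paired analysis was possible because there was a single array of each kind, which also means that no replicate could be left out. YPEL1 to YPEL4 kept a ratio above 0 under each alternative. YPEL5 did too where it had a value (it has none with only _at probe sets), but with spike-in scaling it was at 0.018, its second probe set was at -0.019, and 3 of 10 YPEL probe sets were below 0. The count of 4 YPEL genes at least 2-fold higher became 2 with the floor at the 75th percentile, where 1.17% of all genes passed. The count of probe sets became 2 there as well. At that floor, a signal of 87.2, the ratios of YPEL1 to YPEL4 are all bounds, of at least 1.004, 1.52, 0.41 and 0.39 in log2. The count was 3 genes with spike-in scaling, where 0.335% of all genes passed, and 4 genes at the 3-fold threshold, where 0.441% did. With the threshold at 1.5-fold, all 5 genes were higher, where 13.5% of all genes passed. By probe set, 9 of 10 were higher at that threshold. With no floor, 5 YPEL probe sets were at least 2-fold higher and 1 was at least 2-fold lower, where 12.2% and 9.35% of all genes were. The lower one was the YPEL2 probe set 1556420_s_at at -1.18, from signals under the floor on both arrays. Shares over all probe sets were not computed for these alternatives.

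Spike-in scaling moved the list medians to -0.67 for CTLH subunits, -0.52 for the genes of related fold and -0.62 for the neighbours, as it did all genes. The mean over probe sets gave 1.01 for YPEL1, and at least 1.17 for YPEL2 and 1.23 for YPEL3, since each of these averages in a bound. Over all genes 398 were at least 2-fold higher and 334 lower as reported, 290 and 398 with quantile normalization, 272 and 450 with median centring, 234 and 449 after loess, 43 and 2484 with spike-in scaling, and 2408 and 1848 with no floor. Ratios and list medians were said to have moved when they differed by more than the pooled SD between probe sets, 0.325. Counts were said to have moved when they changed by more than 1.5-fold or from 0. Low signals limit what can be read for YPEL4 and for the dim probe sets of YPEL2 and YPEL3. Variation between cultures is unknown.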
